A study of Mus musculus with 12 samples.

Results

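The genes described here are the Hox genes of the 4 mouse clusters together with Tbx4, Tbx5 and Pitx1, the transcription factors that mark a limb as forelimb or hindlimb. Members were chosen by symbol alone: any gene named Hox, then a, b, c or d, then a number, plus the 3 limb factors, with the brightest probe set standing for a gene. This gave 40 of 19938 measured genes: 10 of HoxA, 9 each of HoxB, HoxC and HoxD, and the 3 limb factors, each read by 1 probe set. Hoxb8 is named only on a probe set that also names Hoxb7 (4.27 to 4.87 on the log2 scale), so it was not counted.

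The study profiled satellite cells, the Pax7-expressing stem cells of skeletal muscle, on 12 single-colour arrays at 4 stages with 3 arrays each. All mice were heterozygous Pax7-ZsGreen animals labelled as strain C57BL/6, and cells were sorted as ZsGreen+ against wild-type SV129 muscle as the negative control, so every group carries the reporter allele. Fetal cells (E17.5) came from the whole forelimb and hindlimb of 4 mice. Adolescent cells (postnatal day 21, 6 mice), adult cells (2 to 3 months, 8 mice) and aged cells (over 1 year, 8 mice) came from hindlimb. In every comparison with fetal cells, stage and limb source therefore cannot be told apart, and the comparisons with fetal cells share the same 3 fetal arrays. The labels do not say if arrays of a stage were separate pools of mice, so the p-values rest on the spread among these arrays alone, and that spread may be technical.

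Hox proteins are homeodomain transcription factors that give cells a position along the body axis. The genes of a cluster lie in order along the chromosome, from paralogue group 1 (anterior) to 13 (posterior), and are used in that order along the trunk; in the limb bud the posterior HoxA and HoxD genes are used again from shoulder or hip to digits. Tbx5 drives forelimb outgrowth, whereas Pitx1 and Tbx4 act in the hindlimb, with Pitx1 acting on Tbx4. The muscle progenitors of the limb migrate in from the somites, and sorted muscle cells can be mixed with connective tissue cells that carry limb patterning genes.

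Values are deposited log2 levels. A level was called above background when it exceeded the 95th percentile of 1205 olfactory and vomeronasal receptor probe sets on the same array, and levels of different genes were not set against each other. That background was 5.33 to 5.52 on 9 arrays, but 6.12 and 6.13 on adult replicates 2 and 3 and 5.86 on aged replicate 1. Of the 40 members, 17 were above background on all 12 arrays, 15 on some and 8 on none (Hoxb6, Hoxb13, Hoxc12, Hoxc13, Hoxd1, Hoxd3, Hoxd12 and Hoxd13). Of all genes, 54.6% were above it on all 12. Mki67, a marker of cycling cells, read 10.8 to 11.0 in fetal, 10.5 to 10.6 in adolescent and 6.15 to 7.38 in aged cells, and 9.28, 6.58 and 6.44 on adult replicates 1 to 3. It moved with stage and with adult replicate 1, and its part in the results was not tested. The satellite cell markers were present at every stage: the mean level of 12 markers was 9.02 to 9.06 in fetal cells and 10.13 to 10.39 later, and Pax7 averaged 10.5 in fetal and 11.6 in aged cells. The number of arrays limits the precision of every value.

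A gene rose or fell here when limma's test passed a Benjamini-Hochberg adjusted p under 0.05 over all 19938 genes. In adolescent against fetal cells 8 members rose and 8 fell, 40.0% of the members, against 18.8% of all genes (10.1% higher and 8.68% lower). In adult against fetal cells 10 rose and 6 fell, where 42.5% of all genes passed (19.1% higher and 23.4% lower). In aged against fetal cells 11 rose and 9 fell, where 35.8% passed (16.4% higher and 19.4% lower). The median member difference was -0.03, 0.06 and 0.09 in these comparisons, beside 0.02, 0.09 and 0.02 over all genes, so the rises and falls lay on either side of a centre near 0. Arrays of the stages compared did not overlap for 24, 18 and 21 of the 40 members, against 41.6%, 47.9% and 48.9% of all genes.

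**Figure D1:**
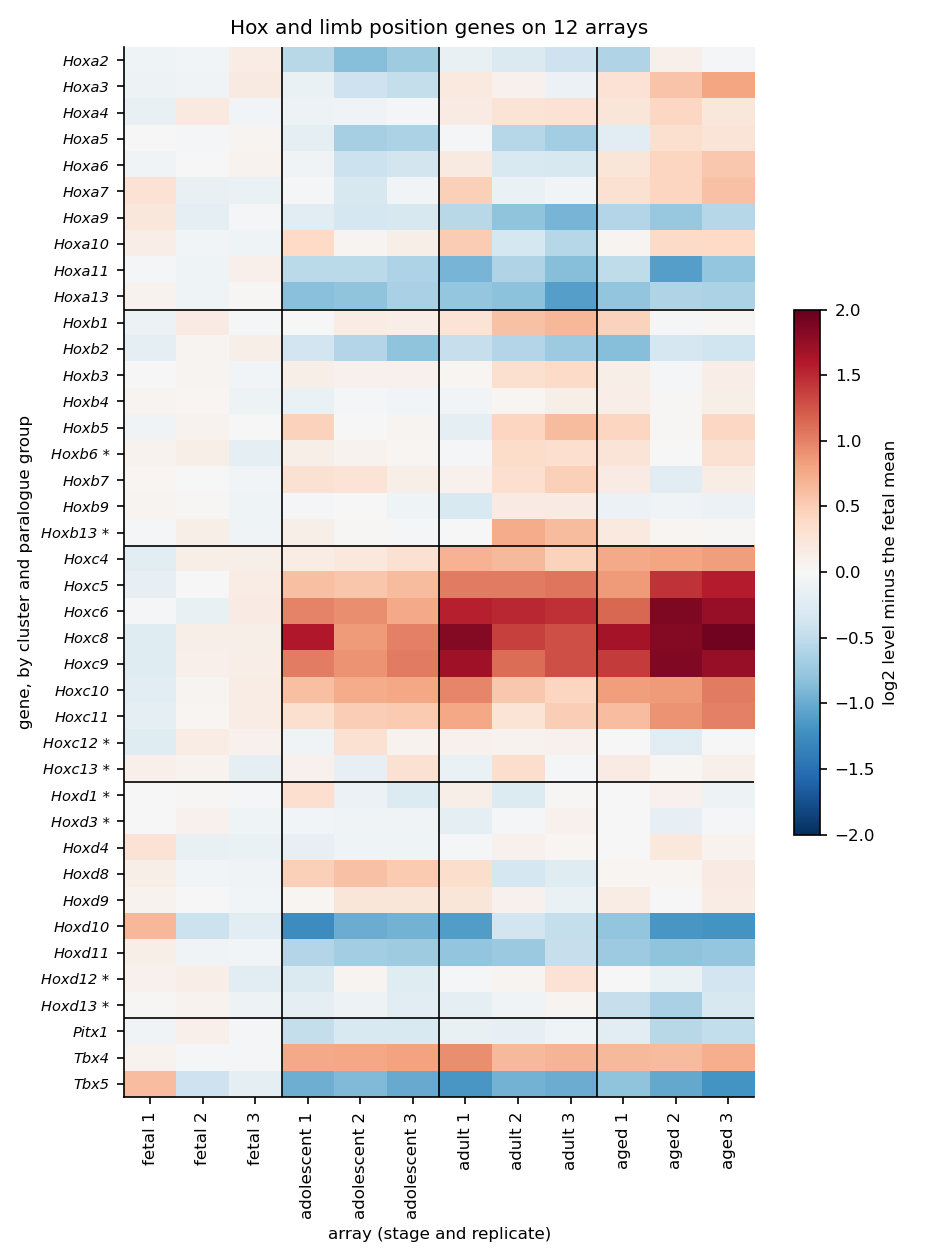
Log2 level of each of the 40 members (rows, by cluster and paralogue group) on each of the 12 arrays (columns), minus that gene's fetal mean; red is above and blue below the fetal mean, and an asterisk marks the 8 members above background on no array. The block of red in the later stages is Hoxc4 to Hoxc11, and the blue rows are mainly Hoxa9, Hoxa11, Hoxa13, Hoxd10, Hoxd11 and Tbx5.

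Of the limb factors, Tbx4 rose in each later stage and Tbx5 fell in each. Pitx1 fell in adolescent and aged cells. Tbx4 (probe set 10379944, chromosome 11) read 7.99, 7.89 and 7.88 in fetal, 8.68, 8.70 and 8.73 in adolescent, 8.85, 8.57 and 8.60 in adult, and 8.57, 8.56 and 8.65 in aged cells. Every later array was above every fetal array. The difference from fetal cells was 0.78 ± 0.10 (SE; 1.72-fold, adjusted p = 7.1e-05) in adolescent, 0.75 ± 0.10 (adjusted p = 4.7e-05) in adult and 0.67 ± 0.10 (adjusted p = 0.00010) in aged cells by limma. Among the 3 hindlimb stages Tbx4 did not pass limma's F-test (adjusted p = 0.60), with means of 8.70 ± 0.02, 8.67 ± 0.15 and 8.59 ± 0.05 (SD, n = 3).

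Tbx5 (probe set 10525030, chromosome 5) read 6.40, 5.38 and 5.59 in fetal cells, 4.81, 4.90 and 4.78 in adolescent, 4.63, 4.84 and 4.79 in adult, and 4.98, 4.76 and 4.59 in aged cells. Only fetal replicates 1 and 3 were above background, and no later array was. The fall was -0.95 ± 0.21, -1.03 ± 0.21 and -1.01 ± 0.21 on the log2 scale (adjusted p = 0.0053, 0.0016 and 0.0017 by limma). Since the later levels were not well above background they give only a bound: fetal cells were at least 1.25-fold above adolescent and at least 1.19-fold above aged cells, with none for adult cells. These bounds rested on fetal replicate 1: without it the fetal level was at least 1.01-fold above adolescent cells, and no bound was left for aged cells. The fetal mean also holds replicate 2, which was not above background, so the bounds are not firm. With values under 6 raised to 6 the call was lost in all 3 comparisons (adjusted p = 0.544, 0.367 and 0.41).

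Pitx1 (probe set 10409551, chromosome 13) read 6.06, 6.25 and 6.11 in fetal, 5.66, 5.84 and 5.84 in adolescent, 5.99, 5.98 and 6.05 in adult, and 5.92, 5.58 and 5.64 in aged cells. The fetal arrays were the highest, and no later array overlapped them. The difference was -0.36 ± 0.11 (adjusted p = 0.035) in adolescent, -0.13 ± 0.11 (adjusted p = 0.33, not passing) in adult and -0.42 ± 0.11 (adjusted p = 0.0077) in aged cells by limma. The adolescent call was lost without fetal replicate 2 or 3 or any 1 of the 3 adolescent arrays (adjusted p 0.0724 to 0.147). It was also lost with the replicate number as a block (adjusted p = 0.067) and with values under 6 raised to 6 (-0.14, 0.0521). The aged call was lost with replicates 2 and 3 averaged (-0.35, adjusted p = 0.185). In adult cells Pitx1 was above background on 1 of 3 arrays.

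**Figure D2:**
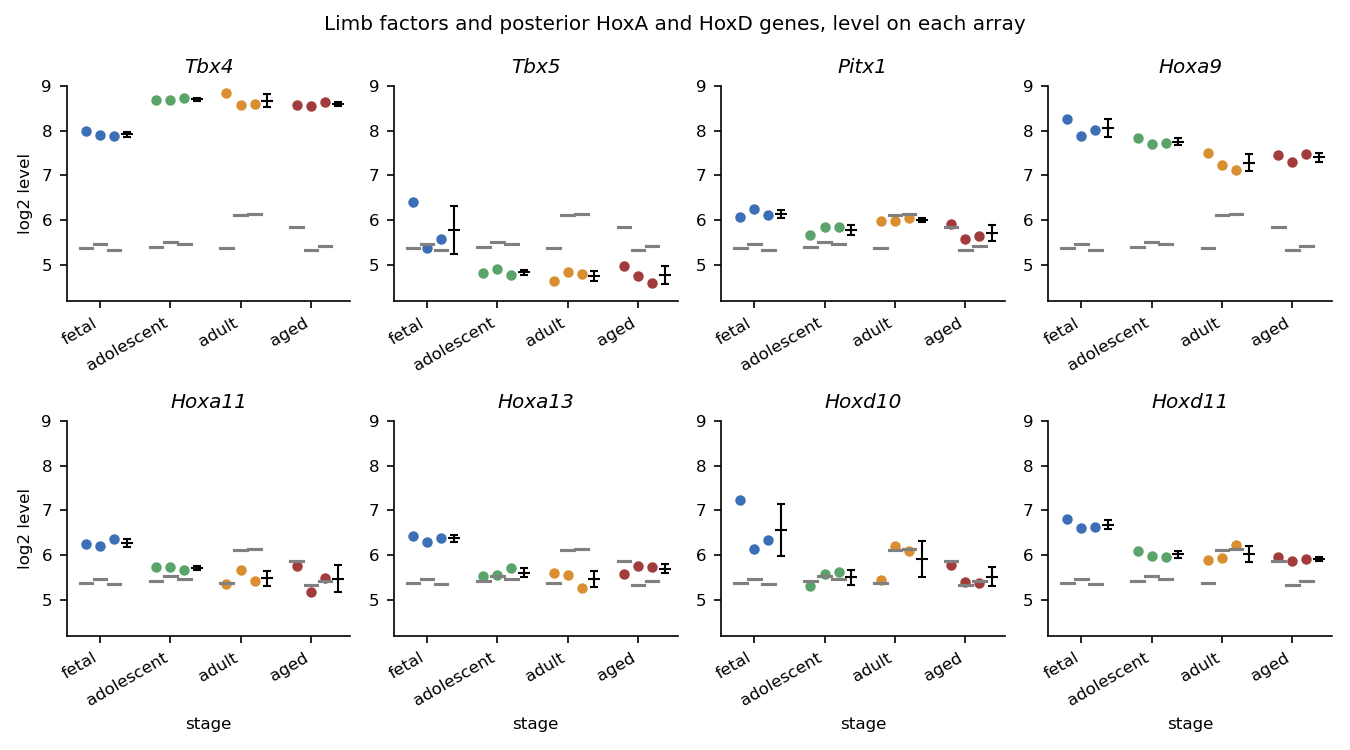
Log2 level on each array (points; replicates 1 to 3 from left to right in a stage) of the 3 limb factors, Hoxa9 and 4 posterior HoxA and HoxD genes; black bars are the stage mean ± SD (n = 3), and grey dashes the array background. Tbx4 is higher on every later array, while Hoxa11, Hoxa13, Hoxd11 and Tbx5 are lower on every later array than on any fetal array.

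The HoxC cluster, on chromosome 15, held the largest rises of any member. Of its 9 genes, 6 rose in adolescent, 7 in adult and 7 in aged against fetal cells, and none fell. Over all genes 10.1%, 19.1% and 16.4% rose. The cluster medians were 0.59, 0.65 and 0.91. The 7 genes from Hoxc4 to Hoxc11 were above background on all 12 arrays. Hoxc12 and Hoxc13, the most posterior, were above it on none, with means between 4.97 and 5.30 and no call. On a scaling by array medians or a repeated quantile normalization, 5, 7 and 7 HoxC genes rose. Of 12 satellite cell markers 11 rose in each of these comparisons (medians 0.81, 1.18 and 1.27). Of 8 smooth muscle and pericyte markers 5, 5 and 5 rose and 1, 1 and 2 fell, and their mean level was 8.01 to 8.18 in fetal and 8.63 to 9.19 in later cells. Of 10 endothelial markers, 9, 3 and 10 rose. The endothelial mean level was 6.90 to 7.77 in fetal, 8.51 to 9.11 in adolescent, 7.82 to 7.89 in adult and 8.68 to 9.26 in aged cells. The part of these 3 lists in the HoxC result was not tested. In sorted bulk cells, fewer cells of a type and less RNA per cell cannot be told apart.

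The 3 genes of the cluster's middle moved most. Hoxc6 (probe set 10427293), a gene of thoracic identity in the trunk, read 7.09, 6.97 and 7.28 in fetal, 8.10, 8.05 and 7.87 in adolescent, 8.67, 8.63 and 8.57 in adult, and 8.27, 8.98 and 8.86 in aged cells. Every later array was above every fetal array, and the adult arrays were above the adolescent ones. It rose by 0.89 ± 0.16 (adjusted p = 0.0015), 1.51 ± 0.16 (adjusted p = 1.1e-05) and 1.59 ± 0.16 (adjusted p = 5.3e-06) by limma, the last a 3.01-fold difference.

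Hoxc8 (probe set 10427290) read 6.58, 6.93 and 6.94 in fetal, 8.42, 7.68 and 7.82 in adolescent, 8.66, 8.18 and 8.10 in adult, and 8.48, 8.65 and 8.75 in aged cells. The fetal arrays lay apart below all others, while the later stages ran into each other. The rise was 1.16 ± 0.20 (adjusted p = 0.00098), 1.5 ± 0.20 (adjusted p = 6.1e-05) and 1.81 ± 0.20 (adjusted p = 9.6e-06) by limma. Hoxc9 (probe set 10427286) read 6.59, 6.94 and 6.96 in fetal, 7.85, 7.73 and 7.87 in adolescent, 8.52, 7.95 and 8.11 in adult, and 8.23, 8.68 and 8.57 in aged cells. It too had no later array within the fetal range, with rises of 0.99 ± 0.16, 1.37 ± 0.16 and 1.67 ± 0.16 (adjusted p = 0.00073, 2.6e-05 and 3.6e-06 by limma). Against a change of 1.5-fold rather than 0, these 3 genes still passed in adult and aged cells, together with Hoxc5 in aged cells, and no HoxC gene did in adolescent cells.

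The flanking genes rose less. Hoxc10 (probe set 10427280), which serves hindlimb and lumbar identity, read 7.25, 7.51 and 7.61 in fetal, 8.06, 8.21 and 8.23 in adolescent, 8.43, 8.00 and 7.89 in adult, and 8.29, 8.31 and 8.49 in aged cells. No later array came within the fetal range, and the rises were 0.71 ± 0.14, 0.65 ± 0.14 and 0.91 ± 0.14 (adjusted p = 0.0033, 0.0032 and 0.00023 by limma). Hoxc4 (probe set 10427303), at the anterior end, read 5.87, 6.21 and 6.22 in fetal, 6.24, 6.31 and 6.41 in adolescent, 6.80, 6.75 and 6.57 in adult, and 6.86, 6.89 and 6.93 in aged cells. The stages followed each other without overlap, although the adolescent difference of 0.22 ± 0.11 did not pass (adjusted p = 0.25); the adult rise was 0.60 ± 0.11 (adjusted p = 0.00098) and the aged rise 0.79 ± 0.11 (adjusted p = 0.00010) by limma.

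Hoxc5 differed from fetal cells by 0.59, 1.05 and 1.29 and Hoxc11 by 0.45, 0.52 and 0.84, and both passed in each comparison. In adolescent cells these calls were close to the threshold: that of Hoxc11 was lost without any 1 of the 6 arrays compared (adjusted p 0.0572 to 0.183), and that of Hoxc5 without fetal replicate 1 or 2 or adolescent replicate 1 or 3 (0.0506 to 0.0742). In adult cells the call of Hoxc11 was lost without fetal replicate 1 (adjusted p = 0.0583).

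**Figure D3:**
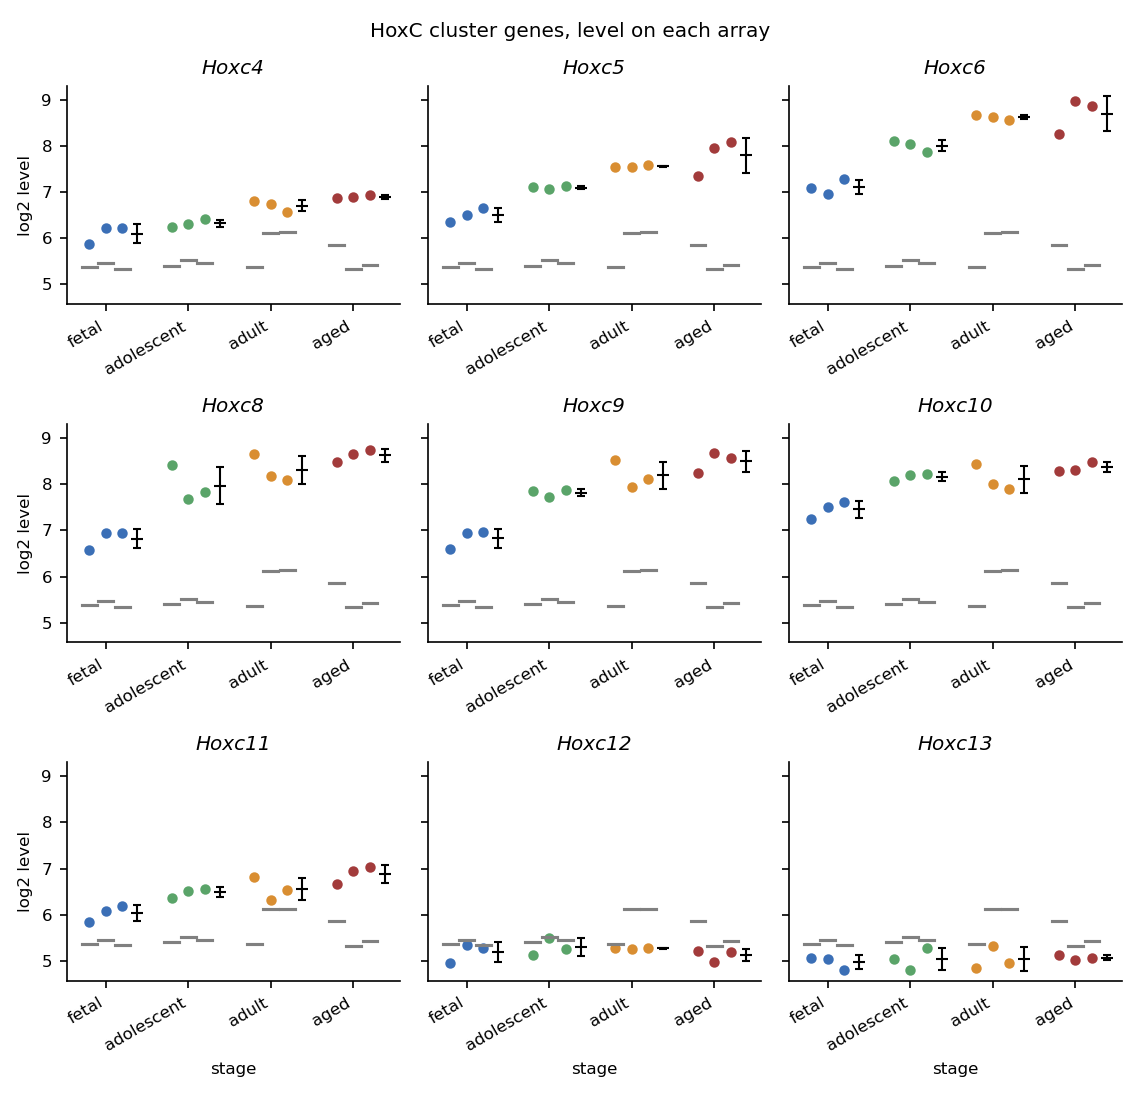
Log2 level of the 9 HoxC genes on each array (points; replicates 1 to 3 from left to right in a stage), with the stage mean ± SD (n = 3, black bars) and the array background (grey dashes). In Hoxc4 to Hoxc11 the fetal arrays are the lowest of the 4 stages, with the widest gap in Hoxc6, Hoxc8 and Hoxc9; Hoxc12 and Hoxc13 stay at or below the background dashes.

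In HoxA, on chromosome 6, the posterior genes Hoxa11 and Hoxa13 fell in every later stage, Hoxa9 fell in adult and aged cells, and the anterior and central genes Hoxa3, Hoxa4 and Hoxa6 rose in aged cells alone of the 3 comparisons. Hoxa2 fell in adolescent cells (-0.70 ± 0.16, adjusted p = 0.0084 by limma), a call lost with values under 6 raised to 6 (-0.19, adjusted p = 0.175). Hoxa5, Hoxa7 and Hoxa10 passed in none of them.

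Hoxa13 (probe set 10544805), which patterns the hand and foot, read 6.43, 6.29 and 6.39 in fetal, 5.53, 5.56 and 5.72 in adolescent, 5.60, 5.54 and 5.27 in adult, and 5.58, 5.76 and 5.73 in aged cells. All later arrays were below all fetal arrays, and 6 of the 9 were above background. The fall was -0.77 ± 0.11 (adjusted p = 0.00026), -0.90 ± 0.11 (adjusted p = 3.3e-05) and -0.68 ± 0.11 (adjusted p = 0.00029) by limma. Hoxa11 (probe set 10544801), needed for the forearm and shank, read 6.25, 6.19 and 6.37 in fetal, 5.73, 5.73 and 5.65 in adolescent, 5.34, 5.67 and 5.42 in adult, and 5.76, 5.17 and 5.49 in aged cells. Again no later array reached the fetal range, with falls of -0.56 ± 0.14, -0.79 ± 0.14 and -0.80 ± 0.14 (adjusted p = 0.013, 0.00067 and 0.00057 by limma). In adult cells Hoxa11 was not well above background on any array, which makes the fetal level at least 1.31-fold higher; its adolescent call was lost without fetal replicate 3 or adolescent replicate 3 (adjusted p 0.06 and 0.0528).

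Hoxa9 (probe set 10544788) read 8.27, 7.88 and 8.01 in fetal, 7.84, 7.69 and 7.74 in adolescent, 7.49, 7.24 and 7.13 in adult, and 7.46, 7.29 and 7.48 in aged cells. The fetal and adolescent arrays lay above all adult and aged ones. It changed by -0.77 in adult and by -0.64 in aged against fetal cells (each SE 0.13; adjusted p = 0.00035 and 0.0012 by limma), and its adolescent difference of -0.30 did not pass (adjusted p = 0.14).

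Hoxa6 (probe set 10544774) read 7.62, 7.68 and 7.76 in fetal, 7.62, 7.26 and 7.33 in adolescent, 7.87, 7.38 and 7.37 in adult, and 7.93, 8.11 and 8.23 in aged cells. The aged arrays were the highest, while the adult arrays overlapped those of the fetal and adolescent stages. Its aged rise of 0.41 ± 0.15 (adjusted p = 0.048 by limma) was lost without any 1 fetal array or without aged replicate 2 or 3 (adjusted p 0.0797 to 0.17), and with the replicate number as a block (0.0653). The aged rise of Hoxa4 (0.30) was lost without fetal replicate 1 or 3 or any aged array (0.051 to 0.168), and that of Hoxa3 (0.55) without aged replicate 3 (0.0523).

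In HoxD, on chromosome 2, Hoxd11 fell in each later stage and Hoxd10 in adolescent and aged cells, while Hoxd8 rose in adolescent cells. Hoxd11 (probe set 10472953) read 6.80, 6.61 and 6.62 in fetal, 6.09, 5.99 and 5.96 in adolescent, 5.89, 5.94 and 6.22 in adult, and 5.95, 5.88 and 5.90 in aged cells. All 9 later arrays were below the fetal ones. It fell in each comparison (-0.67, -0.66 and -0.77, each SE 0.11; adjusted p = 0.00059, 0.00031 and 7.8e-05 by limma).

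Hoxd10 (probe set 10472958), a gene of the limb and lumbar cord, read 7.23, 6.13 and 6.34 in fetal, 5.30, 5.58 and 5.62 in adolescent, 5.44, 6.19 and 6.09 in adult, and 5.77, 5.40 and 5.38 in aged cells. Fetal replicate 1 stood well above the other fetal arrays, and adult replicate 2 overlapped them. The differences were -1.06 ± 0.26 (adjusted p = 0.011), -0.66 ± 0.26 (adjusted p = 0.059, not passing) and -1.05 ± 0.26 (adjusted p = 0.0065) by limma. With values under 6 raised to 6, both calls were lost (-0.57 in each, adjusted p = 0.182 and 0.118). The adult fall passed without fetal replicate 2 (-0.87, adjusted p = 0.0268), after repeated quantile normalization (-0.68, 0.04), with the receptor level of each array as a covariate (-1.06, 0.0129) and without the 3 arrays of raised receptor background (-1.12, 0.0273). Of the genes not named so far, Hoxd13 fell in aged cells (-0.48, adjusted p = 0.0032), although it was above background on no array; Hoxd1, Hoxd3, Hoxd4, Hoxd9 and Hoxd12 passed in no comparison with fetal cells.

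Fetal replicate 1, high in Tbx5 and Hoxd10, was also high in several genes of other cells, of which 3 are given here after their values were seen. Lum, a matrix gene of fibroblasts, read 9.14 there against 7.47 and 7.75, Krt5 of the epidermis 8.15 against 5.97 and 5.74, and Osr1 of limb connective tissue 7.94 against 6.74 and 6.78. Over 10 measured fibroblast markers the mean level was 8.08 to 8.90 in fetal, 7.94 to 8.09 in adolescent, 7.59 to 7.68 in adult and 7.69 to 7.83 in aged cells. Against fetal cells 5, 7 and 6 of them fell while 2, 2 and 1 rose, where 8.68%, 23.4% and 19.4% of all genes fell. The part of these markers in the falls of Tbx5 and of the posterior HoxA and HoxD genes was not tested. The fall of Tbx5 held its call without fetal replicate 1 in all 3 comparisons, as did those of Hoxd10 in adolescent and aged cells. For Tbx5 the fetal arrays then left read 5.38, which was not above background, and 5.59. No bound was left for adult or aged cells.

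In HoxB, on chromosome 11, 1 of 9 genes passed in adolescent, 3 in adult and 1 in aged against fetal cells. The shares of all genes that passed were 18.8%, 42.5% and 35.8%. Hoxb2, a hindbrain gene, fell in each (-0.59, -0.59 and -0.53; adjusted p = 0.016, 0.0088 and 0.015 by limma). Its adolescent call was lost without fetal replicate 2 or 3 or adolescent replicate 2 or 3 (adjusted p 0.0504 to 0.0864), and its aged call without fetal replicate 2 or 3 or aged replicate 1 (0.0548 to 0.0658). With the receptor level of each array as a covariate the adult call was lost as well (-0.34, adjusted p = 0.123), as it was without the 3 arrays of raised receptor background (-0.46, 0.0608). With values under 6 raised to 6, the difference was -0.16 in each comparison and all 3 calls were lost (adjusted p = 0.108, 0.065 and 0.0661). Hoxb1 (probe set 10380665) read 6.42, 6.70 and 6.50 in fetal, 6.54, 6.69 and 6.67 in adolescent, 6.82, 7.13 and 7.20 in adult, and 7.0, 6.52 and 6.57 in aged cells. Its highest values fell on adult replicates 2 and 3 and aged replicate 1, the arrays with the raised receptor background. The adult rise of 0.51 ± 0.14 (adjusted p = 0.014 by limma) was lost without fetal replicate 1 or adult replicate 2 or 3 (0.0529 to 0.0612), and was 0.20 (adjusted p = 0.192) with the receptor level as a covariate.

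Hoxb13 also rose in adult cells (0.46, adjusted p = 0.041 by limma), but no array was above background, and the call was lost without any 1 of 5 of the 6 arrays compared, adult replicate 1 being the exception (adjusted p 0.0542 to 0.178). Hoxb3 (probe set 10380654) read 6.47, 6.52 and 6.42 in fetal, 6.58, 6.56 and 6.56 in adolescent, 6.51, 6.78 and 6.86 in adult, and 6.59, 6.43 and 6.61 in aged cells. The ranges of the fetal, adult and aged arrays overlapped, and Hoxb3 passed in no comparison. Hoxb4, Hoxb5, Hoxb6, Hoxb7 and Hoxb9 did not pass against fetal cells either. Without adult replicate 1, Hoxb3, Hoxb5, Hoxb6 and Hoxb7 passed as higher in adult cells (0.35, 0.53, 0.35 and 0.41), where 65.0% of all genes passed. The 2 adult arrays left are those with the raised receptor background, and neither these nor any fetal array was above background for Hoxb5 or Hoxb6.

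**Figure D4:**
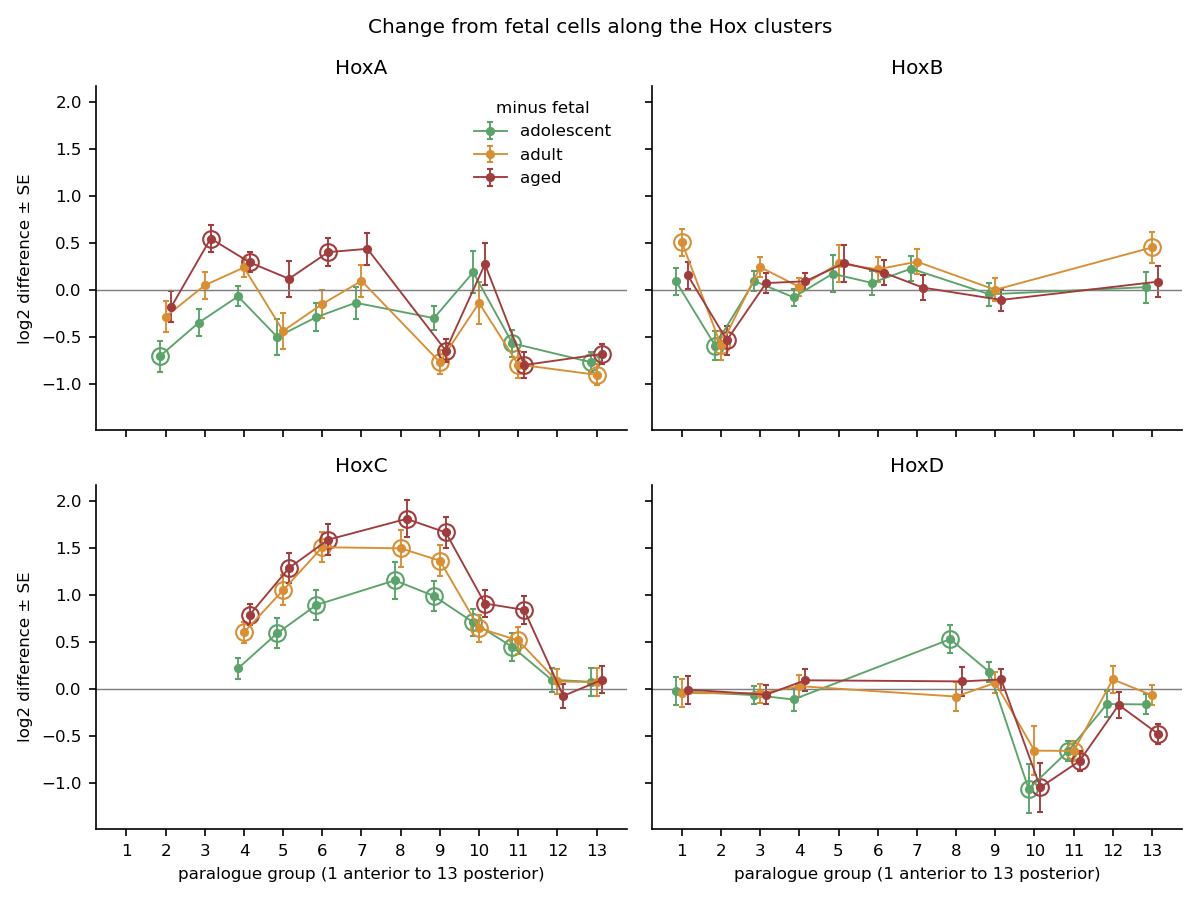
Log2 difference from fetal cells (y axis, ± SE from limma, 3 arrays a stage) by paralogue group (x axis) in each Hox cluster; rings mark differences with an adjusted p under 0.05. HoxC rises to a peak of 1.81 at group 8 in aged cells, while groups 11 and 13 of HoxA and groups 10 and 11 of HoxD lie below 0 in all 3 comparisons.

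By position along the clusters, the calls were spread over all regions. Of all genes 18.8%, 42.5% and 35.8% passed in adolescent, adult and aged against fetal cells. The anterior calls, 2, 3 and 4 of 11 genes, were near or below these shares. Of 11 anterior genes (groups 1 to 4), 0, 2 and 3 rose and 2, 1 and 1 fell in adolescent, adult and aged against fetal cells. Of 14 central genes (groups 5 to 9), 5, 4 and 5 rose and 0, 1 and 1 fell. Of 12 posterior genes (groups 10 to 13), 2, 3 and 2 rose and 4, 3 and 5 fell. The posterior genes that rose were Hoxc10 and Hoxc11, with Hoxb13 in adult cells.

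Comparisons among the hindlimb stages do not mix limb sources. In adult against adolescent cells 2 members rose (Hoxc4 and Hoxc6) and 2 fell (Hoxa9 and Hoxd8), 10.0% of the members, where 19.8% of all genes passed (4.56% higher and 15.2% lower). The ranges did not overlap for 12 members, against 36.0% of all genes. Hoxc6 differed by 0.61 ± 0.16 (adjusted p = 0.019), Hoxc4 by 0.38 ± 0.11 (adjusted p = 0.032) and Hoxa9 by -0.47 ± 0.13 (adjusted p = 0.021) by limma. Hoxd8 (probe set 10472965) read 6.61, 6.45 and 6.44 in fetal, 6.98, 7.08 and 7.03 in adolescent, 6.84, 6.15 and 6.26 in adult, and 6.53, 6.54 and 6.67 in aged cells. The adolescent arrays were the highest of the 12. Its adolescent rise was 0.53 ± 0.15 (adjusted p = 0.027) and its adult fall against adolescent cells -0.61 ± 0.15 (adjusted p = 0.014) by limma.

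Hoxd8 lost the latter call with the receptor level as a covariate (-0.36, adjusted p = 0.0737) and without the 3 arrays of raised receptor background (-0.18, 0.367). Hoxa9 lost its call after quantile normalization (-0.23, 0.165), with arrays centred on their medians (-0.36, 0.0514), with the covariate (-0.37, 0.0944) and without those 3 arrays (-0.26, 0.342), as Hoxc4 did without the 3 arrays (0.48, 0.0692). With only the adolescent and adult arrays in the model, Hoxa9, Hoxc4 and Hoxd8 lost theirs (adjusted p 0.0529 to 0.0745).

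These calls depended on single arrays. The rise of Hoxd8 over fetal cells was lost without any 1 of the 6 arrays but fetal replicate 1 (adjusted p 0.0543 to 0.0962). That call was also lost after repeated quantile normalization (0.44, adjusted p = 0.0658) and with values under 6 raised to 6 (0.53, 0.059). With replicates 2 and 3 averaged it was lost too (0.49, 0.279). Against adolescent cells, Hoxc6 lost its call without adolescent replicate 2 or 3 or adult replicate 2 or 3 (0.0511 to 0.0808), and Hoxc4 without any adolescent array or adult replicate 2 (0.0595 to 0.113). Hoxa9 lost it without adolescent replicate 1 or 3 or adult replicate 2 or 3 (0.0616 to 0.102), and Hoxd8 without adolescent replicate 2 or adult replicate 2 or 3 (0.0541 to 0.0751). The count was 0 without adult replicate 2 (9.41% of all genes passed) and 2 without adolescent replicate 1 (12.4%). It was 1 without adolescent replicate 2 or 3 or adult replicate 3 (9.72% to 12%). Without adult replicate 1 it was 11 (54.0%). With arrays centred on their medians, or quantile normalization repeated, 9 members rose and 1 fell, where over all genes the calls were 909 higher and 3032 lower as deposited, 2233 and 2076 when centred, and 1988 and 1980 after quantile normalization.

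In aged against adult cells 0 of 40 members passed by limma, where 3.50% of all genes did (3.28% higher and 0.216% lower), and 8 members had an unadjusted p under 0.05, against 21.2% of all genes. The ranges did not overlap for 6 members, against 16.0% of all genes. The differences closest to the threshold were Hoxd13 (-0.41, adjusted p = 0.057), Hoxa6 (0.55, 0.062) and Hoxa3 (0.50, 0.089). Without adult replicate 1, 15 members passed, 37.5% against 39.3% of all genes: Hoxa3, Hoxa5, Hoxa6, Hoxa7, Hoxa10, Hoxc9, Hoxc10, Hoxc11 and Hoxd8 as higher in aged cells, and Hoxb1, Hoxb3, Hoxb7, Hoxb9, Hoxb13 and Hoxd13 as lower. The adult arrays left are those with the raised receptor background, and Hoxb9, Hoxb13 and Hoxd13 were not above it on either. Without aged replicate 1, 7 passed, where 11.1% of all genes did: Hoxa3, Hoxa5, Hoxa6 and Hoxc5 as higher, and Hoxb1, Hoxd13 and Pitx1 as lower.

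By limma's F-test among adolescent, adult and aged cells 10 members passed, 25.0% of the members against 23.3% of all genes: Hoxa3, Hoxa4, Hoxa6, Hoxa9, Hoxc4, Hoxc5, Hoxc6, Hoxc9, Hoxd8 and Hoxd13. No limb factor was among them. Their number was 22 without adult replicate 1, 55.0% of the members against 60.6% of all genes. It was 15 without aged replicate 1 (37.5% against 31.9%), 6 without adolescent replicate 1, adult replicate 2 or 3 or aged replicate 3, 5 without aged replicate 2, and 4 and 3 without adolescent replicates 2 and 3, where 14.4% to 17.7% of all genes passed.

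Promoters are shown for Tbx4, Hoxc4, Hoxa11 and Hoxa13, picked with the results known among members that passed and that RefSeq's promoters cover. Others that passed and are covered, such as Hoxa9, Hoxd10 and Hoxd11, are not shown. The promoters shown run from 250 bases before to 50 after the start on GRCm38.p6. They are Tbx4 (chr11:85896515-85896814, plus strand), Hoxc4 (chr15:103034145-103034444, plus strand), Hoxa11 (chr6:52245761-52246060, minus strand) and Hoxa13 (chr6:52260831-52261130, minus strand). Capitals mark a match to the letters TATAAA or AGGTCA on either strand.
Tbx4: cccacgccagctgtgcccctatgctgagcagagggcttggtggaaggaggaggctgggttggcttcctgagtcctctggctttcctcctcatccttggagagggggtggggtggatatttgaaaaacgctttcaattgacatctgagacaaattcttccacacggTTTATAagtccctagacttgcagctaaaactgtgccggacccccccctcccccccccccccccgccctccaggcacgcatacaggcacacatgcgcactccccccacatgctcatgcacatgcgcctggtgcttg
Hoxc4: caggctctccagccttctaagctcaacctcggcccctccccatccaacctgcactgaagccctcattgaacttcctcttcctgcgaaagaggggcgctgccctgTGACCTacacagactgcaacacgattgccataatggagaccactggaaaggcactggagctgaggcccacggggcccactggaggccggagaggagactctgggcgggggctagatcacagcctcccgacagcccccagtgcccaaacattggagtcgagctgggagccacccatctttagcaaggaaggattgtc
Hoxa11: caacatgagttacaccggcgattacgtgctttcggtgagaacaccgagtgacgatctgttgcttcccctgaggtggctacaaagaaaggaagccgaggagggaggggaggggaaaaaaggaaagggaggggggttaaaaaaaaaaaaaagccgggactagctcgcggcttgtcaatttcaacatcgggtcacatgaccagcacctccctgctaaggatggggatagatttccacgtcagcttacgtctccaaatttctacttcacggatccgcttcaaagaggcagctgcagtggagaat
Hoxa13: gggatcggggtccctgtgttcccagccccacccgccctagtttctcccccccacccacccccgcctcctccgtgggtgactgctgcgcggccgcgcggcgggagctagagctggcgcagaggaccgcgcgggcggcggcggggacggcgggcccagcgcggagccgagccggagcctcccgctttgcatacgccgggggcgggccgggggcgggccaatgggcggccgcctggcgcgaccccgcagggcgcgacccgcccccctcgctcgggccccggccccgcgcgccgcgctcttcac

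The promoters of Hoxa11 and Hoxa13, which fell together, hold 15 and 45 CpG dinucleotides, and those of Tbx4 and Hoxc4 hold 8 and 9. The other members that passed against fetal cells did not follow this split. Among those that fell, the numbers were 9 (Hoxa2), 4 (Hoxa9), 22 (Hoxd10), 4 and 25 (Hoxd11) and 37 (Hoxd13). Among those that rose, they were 20 (Hoxa3), 26 (Hoxa6), 10 (Hoxb1) and 6 (Hoxd8). For 22 members the table holds 24 promoters, with a median of 14.5 CpG dinucleotides against 7 over all 32851 promoters. The letters AGGTCA, a nuclear receptor half-site, were found on either strand in 7 of the 24 (29.2%) and in 16.3% of all promoters. TATAAA was found in 4 (16.7%, all 13.6%), TGATNNAT, bound by Pbx with Hox, in 3 (12.5%, all 8.85%) and TGACAG, bound by Meis, in 2 (8.33%, all 19.2%). A match is a run of letters and not a known binding site.

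The clusters also hold small RNA genes, of which miR-196 acts on Hox transcripts. In RefSeq's order Mir196a-2 lies between Hoxc10 and Hoxc9, and Mir615 between Hoxc5 and Hoxc4, inside the stretch of HoxC that rose. Of 16 listed noncoding genes of the clusters, 9 were measured, and 0, 4 and 2 rose in adolescent, adult and aged against fetal cells by limma, with no fall. Over all genes 10.1%, 19.1% and 16.4% rose. The mature RNAs of the 3 small RNA genes that rose, from RefSeq on GRCm38.p6, are given here with the seed (bases 2 to 8) in capitals; the 2 miR-196 RNAs share it.
mmu-miR-196a-5p: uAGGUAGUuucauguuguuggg
mmu-miR-196b-5p: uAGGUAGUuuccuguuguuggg
mmu-miR-615-3p: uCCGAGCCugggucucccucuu

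The probe sets read the transcribed gene and not the mature RNA. Mir196a-2 read 4.61, 5.18 and 5.12 in fetal, 5.02, 5.32 and 5.39 in adolescent, 5.57, 5.61 and 5.60 in adult, and 5.54, 6.24 and 6.03 in aged cells. Of the 12 arrays, adult replicate 1 and aged replicates 2 and 3 alone were above background. The adult and aged rises passed (adjusted p = 0.018 and 0.0011 by limma). The adult and aged means were 1.15-fold and 1.46-fold above the fetal background. These are not firm bounds, since the means hold arrays that were not above background themselves. Mir615 averaged 6.9 in fetal cells and rose by 0.47 and 0.39 (adjusted p = 0.012 and 0.032). Mir196b, which lies between Hoxa9 and Hoxa10, and Hottip, a long RNA beyond the posterior end of HoxA, rose in adult cells alone of these comparisons. No fetal array was above background for either, and of the adult arrays 1 was for Mir196b and 0 for Hottip.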

How the data were processed

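RNA of 12 sorted satellite cell samples (4 stages, 3 arrays each) was amplified with the Ambion WT Expression kit and read on single-colour Affymetrix arrays, per the labels' protocols. Affymetrix Expression Console 1.2.1.20 and RMA are the tools named per the submitters' processing notes. The authors deposited log2 values, and these entered every test as given. The genome build is not given in the sources used here.

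Of 35556 probe sets, 21789 carried 1 gene symbol in GEO's platform annotation, 1621 several and 12146 were not named. The probe set with the highest mean stood for a gene (999 of 19938 genes had several). Array medians were 6.13 to 6.29.

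All 12 arrays entered 1 linear model with a mean per stage (limma 3.58.1, R 4.3.3, 8 residual degrees of freedom), with Benjamini-Hochberg adjustment over all genes. The code was first tested on simulated data. Members and gene lists were chosen with earlier results of these data known. Every array's value is given for the limb factors, the brightest 2 genes of each cluster, and up to 3 largest rises and 3 largest falls a comparison among members that passed, did not overlap and were above background in the higher stage. Of the other lists, up to 3 genes with the smallest p a comparison are named.

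The labels state no pairing. Deviations from the stage mean correlated between adult and adolescent arrays of equal number at 0.362, 0.317 and 0.239, which passed the rule for pairing in that comparison only. Adult replicate 2 with adolescent replicate 3 (0.240) and adult 3 with adolescent 2 (0.293) correlated as well. The other unlike pairs, each with a replicate 1, ran from -0.336 to -0.264. Replicate 1 thus stood apart in both stages, and pairing by number was not shown. All comparisons were also fitted with the replicate number as a block. Other alternatives were 2 scalings, a floor at 6, a filter on dim genes, other treatment of probe sets, other variance models, the receptor level as a covariate, averaging replicates 2 and 3, a test against a 1.5-fold change and leaving out each array in turn.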

Additional observations from a re-analysis of the deposited data

How the results depend on the processing

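Counts of members that passed moved as follows, and the cause was not tested except where an alternative has fewer arrays or a stricter threshold by its construction. In adolescent against fetal cells 16 became 9 with a floor at 6, where 15.6% of all genes passed. It became 7 with replicates 2 and 3 averaged (7.38% of all genes) and 0 against a 1.5-fold change (3.96%). In adult against fetal cells 16 became 28 with array weights (77.4% of all genes passed) and 3 against a 1.5-fold change (9.29%). In aged against fetal cells 20 became 4 against a 1.5-fold change, where 10.8% of all genes passed. In adult against adolescent cells 4 became 10 with quantile normalization repeated (19.9% of all genes) and 10 with centred arrays (21.6%). It became 2 with only the stages compared (10.8%), 25 with array weights (75.7%) and 9 with the receptor covariate (13.5%). It was 0 with replicates 2 and 3 averaged (1.62%) or against a 1.5-fold change (1.3%). In aged against adult cells 0 became 1 with quantile normalization (3.85% of all genes) and 1 with centred arrays (2.89%). It became 2 without dim genes, where 842 genes passed in all, and 27 with array weights (79.1%). Among the hindlimb stages 10 became 6 with a floor at 6 (17.9% of all genes) and 35 with array weights (92.7%). With replicates 2 and 3 averaged it became 0 (3.69%). The estimation of array weights stopped before converging.

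Without 1 array the counts ran from 10 to 14, 13 to 25, 17 to 19, 0 to 11, 0 to 15 and 3 to 22 in the same order. At the lowest counts 13.5%, 34.8%, 29.6% to 30.1%, 9.41%, 1.07% to 1.45% and 14.4% of all genes passed. At the highest counts 16.7%, 65%, 32.3%, 54%, 39.3% and 60.6% of all genes did. With the replicate number as a block (replicate block) they were 14, 15, 20, 5, 0 and 8. In adult against adolescent cells the block added Hoxc5. Leaving out adult replicates 2 and 3 and aged replicate 1 together, chosen after seeing the data, left 1 adult array. The counts of that setting are not given.

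Many named members were picked for large differences on these same arrays. Each member has 1 probe set, so the alternatives on probe sets could not change its difference. Both raise the share of calls kept. Over 980 repeats for named members, 734 of 840 that started from a call kept it, 106 lost it and 0 changed sign. Of 140 that started without one, 6 gained a call and 16 changed sign. Among these, Tbx5 in aged against adult cells was 0.02 as deposited, -0.23 with array weights (adjusted p = 0.037) and -0.23 to 0.19 over its alternatives. Centring moved the median of all genes to 0.13 in both adult comparisons with younger cells. Signal over background limited several members, among them Tbx5, Pitx1, Hoxa2, Hoxb2, Hoxd10 and the 8 never above it.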

Other observations

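Hox proteins bind DNA with partners of the TALE class, the Pbx, Meis and Pknox proteins. Of 9 measured, 1, 1 and 1 rose and 2, 5 and 4 fell in adolescent, adult and aged against fetal cells, with the share of all genes called as given above. Pbx3 had means of 9.6, 8.6, 7.1 and 7.7 from fetal to aged cells and fell in each (differences of -1.02, -2.45 and -1.91). Meis1 fell as well (-1.08, -1.44 and -0.90), and Meis3 rose by 0.45, 0.78 and 0.91. By limma the largest adjusted p among these 9 differences was 0.012.

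Polycomb and trithorax proteins hold Hox genes off or on. Of 24 measured regulators 3, 8 and 9 rose and 4, 12 and 13 fell, where 18.8%, 42.5% and 35.8% of all genes passed. Cbx7, a subunit of Polycomb complex PRC1, rose by 1.43, 2.42 and 2.88, and Jarid2, a partner of PRC2, by 0.92, 1.19 and 1.5. The PRC2 methyltransferases differed: Ezh1 rose by 1.01, 1.38 and 1.62 and Ezh2 fell (-0.66, -1.61 and -1.58; adjusted p at most 0.030 by limma). 

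Of 38 limb patterning genes 2, 7 and 7 rose and 5, 7 and 7 fell. In all 7, 14 and 14 passed, near the share of all genes (18.8%, 42.5% and 35.8%). Fgf10, a growth factor of limb outgrowth, averaged 7.2 in fetal cells and was not well above background on any later array. It fell in each comparison, with fetal cells at least 3.37-fold above adolescent, 2.53-fold above adult and 3.20-fold above aged cells. Gli3, a mediator of Hedgehog signalling, fell too (-1.52, -2.33 and -2.03). Other genes of this list rose. Tbx3 rose in each comparison (0.39, 0.33 and 0.76, adjusted p at most 0.0088 by limma). Gli2 and Ptch1, added after their values were seen, rose in adult (0.57 and 0.38) and aged cells (0.73 and 0.69). Retinoic acid sets Hox expression along the trunk, and of 17 genes of its pathway 4, 6 and 6 rose and 3, 4 and 4 fell. In all 7, 10 and 10 of the 17 passed, beside the shares of all genes just given. The synthetic enzyme Aldh1a1 rose by 2.87, 3.35 and 4.23, and the binding protein Crabp1 fell (-2.57, -2.38 and -2.72). Cyp26a1, which degrades retinoic acid, was above background on the aged arrays alone, with a mean of 6.3. It rose in aged against adult cells (adjusted p = 5.3e-05 by limma), the aged level being at least 1.31-fold higher.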
